A study of Bos taurus with 16 samples.

Results

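The comparison described here is whether maternal overfeeding was accompanied by a different change in round muscle than in sirloin muscle of the same newborn calf. All 16 RNA sequencing libraries of the series entered it, as 8 calves with 1 library from each muscle. For each calf the log2 level in sirloin was subtracted from that in round (the round minus sirloin difference, of CPM, counts scaled to the library size), and the 4 treated calves were compared with the 4 control calves across 15638 of the 34109 genes in the tables, those with enough counts to test. A positive interaction value means that the treated-minus-control log2 difference was higher in round than in sirloin, and a negative value means that it was lower in round.

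The calves were Hanwoo, a Korean beef breed of Bos taurus. Their dams were assigned to 100% of their nutritional requirement (control) or 150% of it (treated), the treated dams from the middle of pregnancy onward. These percentages are nominal, and the paper gives control intakes above the feeding standard that it cites. Muscle was taken directly after birth. Calves received no diet treatment of their own. The paper describes them as male, kept from colostrum, and killed with intravenous pentobarbital and bleeding before sampling. The replicates of a diet are different calves. The 2 libraries taken as 1 calf carry the same number in their labels. Control calves 1 to 4 here are label numbers 4, 5, 7 and 8, and treated calves 1 to 4 are label numbers 1, 2, 3 and 6.

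Round is a cut of the hind limb and sirloin one of the loin and hip. The paper names the Gluteus medius and Psoas major as examples of sirloin muscles, and the labels name no single muscle. Limb and trunk muscles keep different positional gene programmes from development, and they differ in their mix of slow, oxidative and fast, glycolytic fibres. Immediate early genes respond within minutes to contraction, stretch, hormones or handling of a tissue, and many of them encode transcription factors. A maternal diet acts on both muscles of a calf through the same circulation, so the calf itself serves as the reference.

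Treated calves had a lower round minus sirloin difference than control calves for ARC, PCOLCE2, MAP3K8, BTG2, KCTD12, KLF6 and RUNX1, among others. Their levels were higher in round than in sirloin in the control calves and about equal in both muscles, or lower in round, in the treated calves. NAB2, PINK1 and GPT2 went the other way. None of these passed the threshold across all genes with edgeR, and the gene that did, AMBP, was at a few counts in most libraries. They are described gene by gene below the counts. They were picked for a small interaction p, so calf differences that do not overlap are not separate evidence for them.

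With edgeR's quasi-likelihood test and the calf as a block, 1 of 15638 genes (0.00639%) had a Benjamini-Hochberg adjusted interaction p under 0.05. At an unadjusted p under 0.05 there were 773 genes, 4.94% of those tested, which is close to the threshold itself. Of these, 389 were higher (2.49%) and 384 lower (2.46%) in the treated calves, and the median interaction value over all tested genes was -0.02. With 1 calf left out, the count lay between 513 (without control calf 2) and 1083 (without treated calf 1). With all calves it was 976 (6.24%) by DESeq2, 966 (6.18%) by limma-voom and 879 (5.62%) by limma on the calf differences. DESeq2 gave an adjusted p under 0.05 to 7 genes, AMBP higher and ARC, PCOLCE2, RUNX1, MAP3K8, KCTD12 and gene 112442591 lower. In simulated data DESeq2 made more false calls than edgeR (40 against 6) and recovered more of the changed genes (75.5% against 61.5%). In simulated data with no changed genes, DESeq2 made 5 false calls and edgeR 0. All simulated data were drawn from edgeR's own fit, so they do not decide which tool is right here. The 4 treated and 4 control differences did not overlap for 511 genes (3.27%), 278 of them higher (1.78%) and 233 lower (1.49%).

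The whole profile of differences was compared by a pseudo-F, the ratio of variation between diets to variation among calves of a diet. It was 1.09, with an exact permutation p of 0.286 over the 35 ways to split the calves, where the smallest p possible is 0.0286. The mean distance between calves of different diets was 129, against 137 within the treated and 118 within the control calves. The median SD of a gene's difference was 0.48 log2 units among the treated and 0.37 among the control calves. The median standard error of a gene's interaction value was 0.33.

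Several libraries stood apart. Total counts ran from 44473011 to 72446933 per library. The sirloin library of treated calf 4 held ADIPOQ, the adipocyte hormone adiponectin, at 953 CPM against at most 1.61 CPM elsewhere, and its 20 adipocyte markers summed to 5444.57 CPM against 797 to 1384 in the other libraries. The round library of treated calf 3 held all 18 genes of a hepatocyte list, summing to 156 CPM, and the sirloin library of control calf 2 held all 18 at 57.8 CPM. Immune cell markers were highest in treated calf 2, at 101 CPM in sirloin and 68.7 in round. Among round libraries, those of treated calves 2 and 3 were the lowest in MYH1, a fast myosin. They were also the highest in ATP2A2, the slow fibre calcium pump, with values given below. FOS, an immediate early transcription factor, was at 381 and 425 CPM in round and sirloin of treated calf 4 and at most 73.6 CPM in the other libraries. In bulk tissue, fewer cells of a type and less RNA per cell cannot be told apart.

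**Figure D1:**
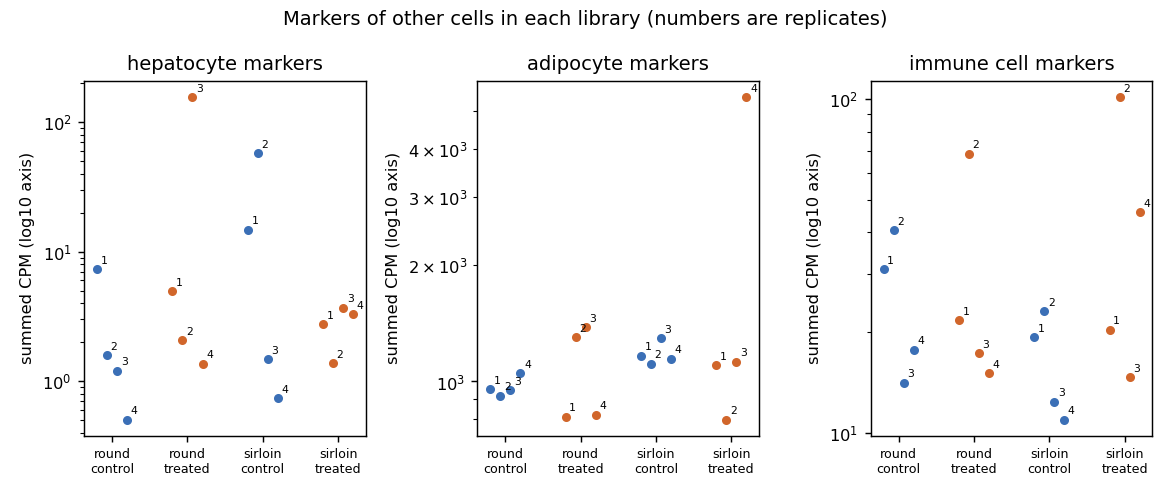
Summed CPM (log10 axis) of hepatocyte, adipocyte and immune cell markers in each of the 16 libraries, by muscle and diet, with 1 point per library and the calf's replicate number beside it. Round of treated calf 3 and sirloin of control calf 2 are high in hepatocyte markers (156 and 57.8), and sirloin of treated calf 4 is high in adipocyte markers (5444.57).

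The muscle labels held in every library. TBX4, a transcription factor of the hind limb, was between 0.228 and 2.39 CPM in all 8 round libraries and at 0 counts in all 8 sirloin libraries. IGFN1, a muscle structural protein gene, was between 691 and 4094 CPM in sirloin and between 2.71 and 235 CPM in round. ACTA1, skeletal actin, lay between 14754 and 41647 CPM, and CKM, muscle creatine kinase, between 6329 and 23060 CPM.

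ARC, an early response gene of activity-regulated signalling, had the lowest unadjusted p among genes that were lower. In round muscle it read 1.86, 1.2, 4.57 and 4.45 CPM in control calves 1 to 4 and 0.0645, 0.166, 0 and 0.0629 CPM in treated calves 1 to 4. In sirloin it read 0.0891, 0.172, 0.498 and 0.345 CPM in the control calves and 0.118, 0.101, 0.0743 and 0.143 CPM in the treated calves. All control round libraries stood above every other library, and the treated round libraries held at most 8 counts each. The mean difference was 3.30 ± 0.57 (SD, n = 4) in control and -0.64 ± 0.90 in treated calves, with no overlap. This gave an interaction of -4.27 (SE 0.78, adjusted p = 0.890 by edgeR).

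RUNX1, a transcription factor raised in muscle by loss of nerve supply, was at 26.8, 11.4, 14.4 and 10.3 CPM in round of control calves 1 to 4 and at 4.11, 0.932, 0.628 and 0.817 CPM in round of treated calves 1 to 4. Its sirloin levels were 13.6, 0.967, 1.63 and 2.20 CPM in the control and 2.71, 0.708, 0.668 and 1.2 CPM in the treated calves. The diets were apart in round and overlapped in sirloin, where control calf 1 was the highest. The mean difference was 2.45 ± 1.13 in control and 0.08 ± 0.52 in treated calves (SD, n = 4), and the groups did not overlap. For RUNX1 the interaction was -2.37 (SE 0.54, adjusted p = 0.927 by edgeR).

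MAP3K8, a kinase of inflammatory and growth factor signalling, read 3.53, 7.84, 15 and 6.80 CPM in round of the control calves and 3.08, 2.13, 3.97 and 2.22 CPM in round of the treated calves. In sirloin the control calves had 1.87, 4.45, 6.77 and 3.08 CPM and the treated calves 4.68, 2.04, 4.46 and 3.50 CPM. Round was above sirloin in all 4 control calves, and in the treated calves it was above in calf 2 alone, by 0.06. The interaction value was -1.35 (SE 0.26, adjusted p = 0.890 by edgeR), with a diet difference of -1.39 in round and -0.06 in sirloin.

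BTG2, an early response gene that restrains cell division, read 63.4, 24.8, 102 and 55.2 CPM in control round and 12.0, 22.3, 27 and 35 CPM in treated round. Sirloin held 26.1, 13.0, 32.4 and 26.5 CPM in the control and 12.7, 25.6, 17.1 and 32.7 CPM in the treated calves. Diets overlapped within each muscle, while the calf differences did not overlap. They averaged 1.23 ± 0.32 in control and 0.12 ± 0.38 in treated calves (SD, n = 4), an interaction of -1.11 (SE 0.24, adjusted p = 0.927 by edgeR).

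PCOLCE2, an enhancer of procollagen processing, read 9.21, 20.4, 13.6 and 12.5 CPM in control round and 4.32, 15.3, 8.21 and 14.8 CPM in treated round. In sirloin it was at 7.04, 12.0, 10.9 and 8.27 CPM in control and 7.39, 20.1, 10.8 and 25.9 CPM in treated calves. The difference was above 0 in every control calf, from 0.32 to 0.77, and below 0 in every treated calf, from -0.81 to -0.39. PCOLCE2 thus had an interaction of -1.11 (SE 0.21, adjusted p = 0.890 by edgeR). Its relative PCOLCE had an interaction of -0.99 (SE 0.24), with differences of 0.95 ± 0.29 in control and -0.03 ± 0.38 in treated calves.

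The other genes among the 10 lower ones with the smallest p at a mean of at least 1 CPM were KCTD12, a subunit of GABA-B receptor complexes (-1.70, SE 0.37), KLF6 and KLF4, zinc finger transcription factors (-1.03, SE 0.23, and -1.49, SE 0.35), the ubiquitin ligase RNF115 (-1.18, SE 0.28) and the early response factor CSRNP1 (-1.85, SE 0.47). Each of these 5 had an adjusted p of 0.927 by edgeR and control and treated differences that did not overlap. Differences did not overlap for 3.27% of all tested genes. A choice by smallest p from the same differences favours such genes, so this is not separate evidence. KLF6, KLF4, KCTD12, PCOLCE and PCOLCE2 were lower in treated calves in round and higher in sirloin. KLF4, for example, had a diet difference of -0.98 in round and 0.52 in sirloin, and KLF6 of -0.62 and 0.41.

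**Figure D2:**
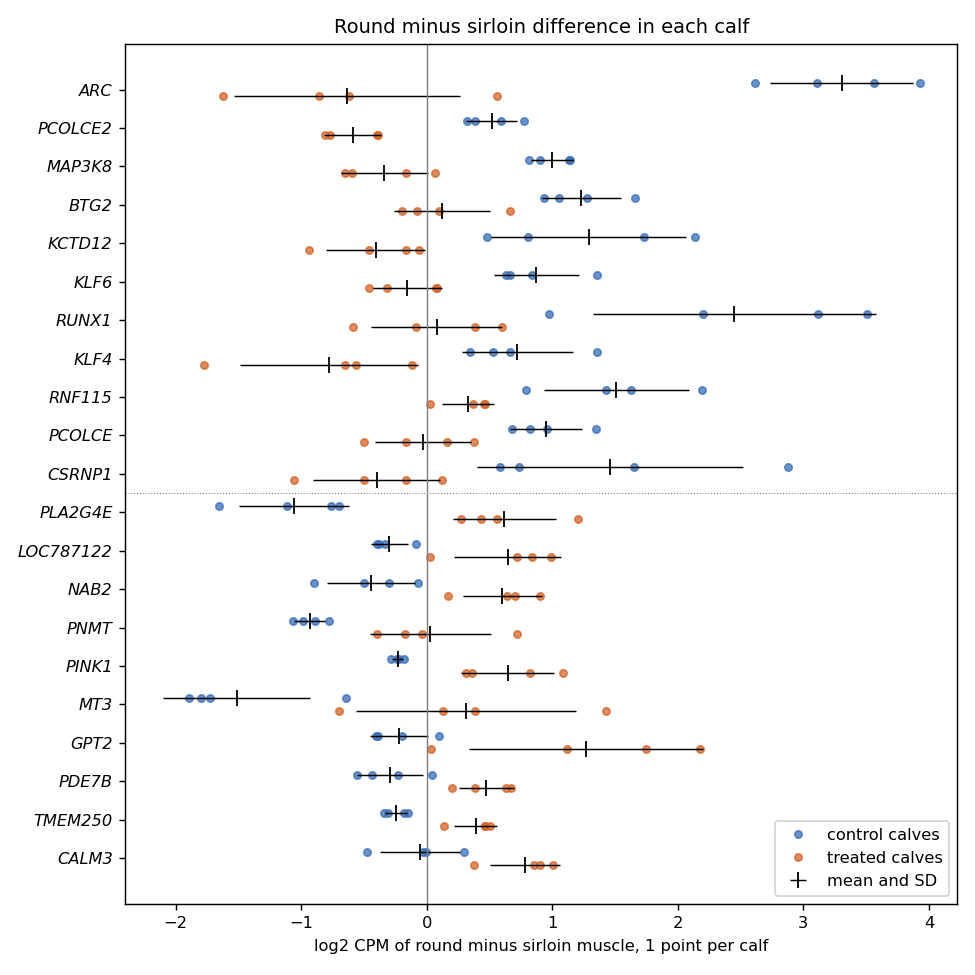
Round minus sirloin log2 CPM difference of each calf for ARC, the 10 lower and the 10 higher genes named by smallest p, with 4 control and 4 treated calves per gene and the mean with SD. Below the dotted line the treated calves lie to the right of the control calves, overlapping for MT3 and GPT2, and above it they lie to the left.

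Among the 10 higher genes, NAB2, a repressor of the early response factors EGR1 and EGR2, was the 1 that the study had also listed. It read 9.94, 12.2, 15.9 and 12.4 CPM in sirloin of control calves 1 to 4 and 2.73, 3.44, 2.63 and 2.46 CPM in sirloin of treated calves 1 to 4. In round it read 8.05, 11.6, 8.53 and 8.75 CPM in the control and 4.26, 5.62, 4.95 and 2.77 CPM in the treated calves. The diets were apart in both muscles, and further apart in sirloin, with diet differences of -2.14 in sirloin and -1.10 in round. The interaction value was 1.06 (SE 0.26, adjusted p = 0.927 by edgeR).

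PINK1, a kinase that marks damaged mitochondria for removal, read 379.7, 291, 293 and 274 CPM in control round and 366, 728, 366 and 298 CPM in treated round. Sirloin held 464, 343, 343 and 310.3 CPM in control and 295, 344, 208 and 232 CPM in treated calves. The difference was -0.23 ± 0.04 in control and 0.64 ± 0.37 in treated calves (SD, n = 4), without overlap. The interaction value was 0.88 (SE 0.22, adjusted p = 0.927 by edgeR), and 0.73 without treated calf 2, whose round library was the highest.

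GPT2, the mitochondrial alanine aminotransferase, read 47.5, 33.3, 33.3 and 31.2 CPM in control round and 32.4, 87.1, 83.6 and 43.8 CPM in treated round. Its sirloin levels were 62.9, 43.6, 38.1 and 29.1 CPM in control and 31.7, 19.2, 24.8 and 20.2 CPM in treated calves. Treated calves 2 and 3 had the highest round levels, and treated calf 1, with a difference of 0.03, overlapped control calf 4. The round libraries of treated calves 2 and 3 were also the lowest in the fast myosin MYH1. These calves had the largest PINK1 differences too (1.08 and 0.82). The part of fibre mix in the GPT2 and PINK1 values was not tested. The interaction value was 1.5 (SE 0.39, adjusted p = 0.927 by edgeR).

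The remaining higher genes were the phospholipase PLA2G4E (1.71, SE 0.41), the adrenaline-forming enzyme PNMT (0.96, SE 0.24), the metallothionein MT3 (1.84, SE 0.48), the cyclic AMP phosphodiesterase PDE7B (0.77, SE 0.21), the calmodulin gene CALM3 (0.84, SE 0.23), TMEM250 (0.64, SE 0.17) and LOC787122 (0.94, SE 0.23). Of these 7, MT3 was the 1 whose calf differences overlapped between diets. These genes too were picked by smallest p, so the lack of overlap in the others is not separate evidence. PNMT was lower in round than in sirloin in every control calf, by -1.07 to -0.78, and its treated differences ran from -0.39 to 0.72.

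**Figure D3:**
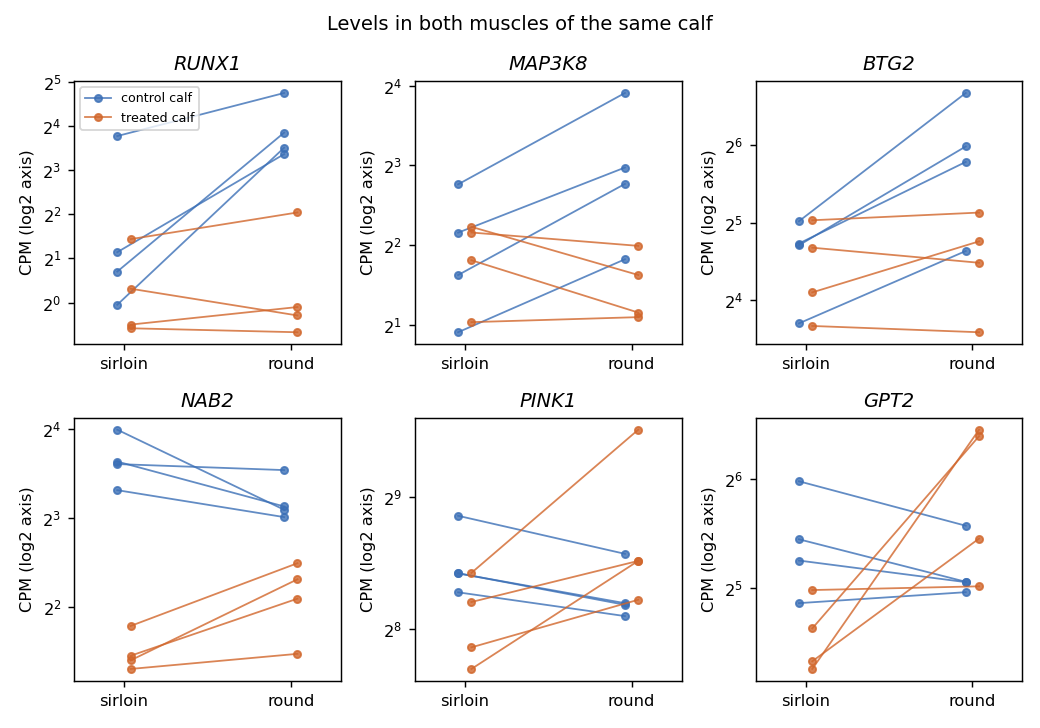
CPM (log2 axis) in sirloin and round muscle of the same calf, joined by a line, for RUNX1, MAP3K8, BTG2, NAB2, PINK1 and GPT2 in 4 control and 4 treated calves. Control lines climb from sirloin to round for the top row and treated lines climb less or fall, while in the bottom row treated lines climb, hardly so for GPT2 in treated calf 1.

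Gene lists were read against the background of 4.94% of genes at an unadjusted p under 0.05. Over all 15638 tested genes, 7411 interaction values were above 0 and 8227 below 0. Lists and members were chosen with earlier results of these data known, so these shares are a reference and not a test of a list. Members of a list were measured in the same 8 calves and are not independent of each other. Of the 27 lists not taken from the study or added for hepatocytes, immediate early genes had the largest number of members at that level with all calves in, 11 of 31 against 6 of 14 for immune cell genes. Without control calf 1 the stretch list below had 11 and the immediate early list 10. Of 31 tested, 10 were lower (ARC, BTG2, KLF6, RUNX1, KLF4, FOS, MYC, DUSP1, FOSB and IER5), 1 was higher (NAB2), and 28 had a value below 0. Their median was -0.73, against -0.02 for all genes. The list's median diet difference was -0.68 in round and 0.03 in sirloin. FOS had an interaction of -2.19, FOSB of -2.01, the phosphatase DUSP1 of -0.79 and MYC of -0.75. The number lower was between 9 and 12 when any 1 calf was left out and 8 without treated calves 3 and 4 and control calf 2. ARC, RUNX1 and NAB2 were also picked by the study from these libraries, and RUNX1 is not a typical immediate early gene. FOS spanned 38.5 to 73.6 CPM in control round and 4.48 to 381 CPM in treated round, so the diets overlapped.

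Stretch, SRF and YAP response genes, which follow actin tension, had 5 of 28 tested members lower at that level and none higher, with a median of -0.46. The 5 were THBS1, the matrix protein thrombospondin 1 (-2.64), CD44, the hyaluronan receptor (-1.54), CNN1, smooth muscle calponin (-1.53), EMP1 (-1.14) and the tropomyosin TPM4 (-0.91). THBS1 was at 169.8, 476, 252 and 334 CPM in control round and 22.8, 46.4, 24.4 and 29.6 CPM in treated round. In sirloin it was at 124, 14.3, 56.9 and 79.3 CPM in control and 8.43, 136, 23.2 and 61.0 CPM in treated calves. The diets were apart in round and overlapped in sirloin, with treated calf 2 the highest there. THBS1, CD44, CNN1 and EMP1 were also picked by the study from these libraries for a diet difference in round, which leaves TPM4 as the member not so chosen. The count of 5 became 11 without control calf 1 and 2 without control calf 2, treated calf 2 or treated calf 4, and the median was -0.23 without control calf 2.

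Integrated stress response genes, the targets of ATF4, had 5 of 20 tested members lower and none higher, with a median of -0.69. These were the glutamine transporter SLC1A5 (-1.55), DDIT3 (-0.94), TRIB3 (-2.52), GADD45A (-0.94) and CHAC1 (-2.07). SLC1A5 was at 34.9, 40.9, 42.7 and 28.2 CPM in control round and 11.5, 12.5, 19.1 and 13.1 CPM in treated round. Its sirloin levels were 26.3, 7.92, 10.4 and 20.3 CPM in control and 9.50, 18.7, 24.4 and 15.5 CPM in treated calves. Diets were apart in round and mixed in sirloin. SLC1A5 and TRIB3 were picked by the study in round muscle. The median was -0.38 without control calf 3 and -0.40 without treated calf 3. The count was 3 without treated calf 3 and 0 without treated calves 3 and 4 and control calf 2.

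Collagen and matrix genes had 4 of 27 tested members lower (PDGFRA, COL5A2, POSTN and COL3A1) and none higher, and 26 were below 0, with a median of -0.55. PDGFRA, the receptor that marks muscle fibroblasts and fibro-adipogenic cells, had a diet difference of 0.19 in round and 0.92 in sirloin. The summed level of the list was 11551 CPM in round of control calf 2 and 2826 to 3486 CPM in the other control round libraries. The part of that library in these values was not tested, other than by leaving the calf out. The count of 4 was 1 without control calf 2, control calf 4 or treated calf 4, 2 without treated calf 2 and 11 without treated calf 3. The median was -0.27 without control calf 2. Sirloin of treated calf 4, the library high in adipocyte markers, had 4445 CPM of the list against 2382 to 2712 CPM in the other treated sirloin libraries, and the median was -0.37 without that calf.

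Immune cell genes had a median of -1.09 over 14 tested, with 5 lower (the complement genes C1QA, C1QB and C1QC, the macrophage receptor CD163, and RGS1) and 1 higher (the T cell gene CD3D). C1QA was at 4.30, 6.48, 2.48 and 2.28 CPM in control round and 2.82, 9.53, 2.08 and 1.99 CPM in treated round. In sirloin it was at 2.47, 2.68, 1.3 and 1.19 CPM in control and 2.67, 17.4, 1.75 and 6.54 CPM in treated calves. Treated calf 2 was the highest in both muscles, and the interaction value was -1.56 (SE 0.42). RGS1 was also picked by the study from these libraries, in sirloin. The count of 5 was 2 without control calf 1 and 3 without control calf 2 or treated calf 4, and the median was -0.69 without control calf 2 and -0.70 without treated calf 4.

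Slow fibre genes were among the lists with values above 0. Of 13 tested, 11 were above 0 with a median of 0.85, and TNNI1, slow troponin I (1.08, SE 0.44), and ATP2A2, the slow fibre calcium pump (1.26, SE 0.56), had an unadjusted p under 0.05. ATP2A2 was at 1237, 1527, 1425 and 1550.2 CPM in control round and 1240.2, 9138, 3956 and 1847 CPM in treated round. Its sirloin levels were 2727, 2565, 3075 and 2744 CPM in control and 2547, 2028, 2853 and 2236 CPM in treated calves. The high values were those of treated calves 2 and 3, whose round libraries also had MYH7, slow myosin, at 38319 and 13311 CPM and MYH1, a fast myosin, at 716 and 1312 CPM, against 9881 to 25534 CPM of MYH1 in the other round libraries. The median was 0.36 without treated calf 2. The number past the level was 0 without control calf 1 or 2, 1 without control calf 3, treated calf 2 or treated calf 3 and 7 without treated calf 1. None of 15 fast fibre genes reached that level, and their median was -0.01.

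All 14 tested genes of the neuromuscular junction were above 0, with a median of 0.53. At an unadjusted p under 0.05 were the acetylcholine receptor subunits CHRNE (1.11) and CHRNA1 (0.71), COLQ, the collagen tail of acetylcholinesterase (1.53), and the transcription factor ETV5 (1.2). COLQ was at 1.02, 0.697, 0.172 and 0.219 CPM in control round and 3.02, 2.47, 0.614 and 0.608 CPM in treated round. Its sirloin levels were 0.847, 1.63, 0.548 and 0.643 CPM in control and 2.19, 1.17, 0.446 and 0.543 CPM in treated calves. The diets overlapped in each muscle. The median was 0.25 without treated calf 1 and 0.35 without control calf 3, with 12 of 14 above 0 in each. The count of 4 was 2 without control calf 3, treated calf 1 or treated calf 2, and 5 without treated calves 3 and 4 and control calf 2.

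Respiratory chain subunits had small values of the same sign, 53 of 60 above 0 with a median of 0.22. At an unadjusted p under 0.05 were 4, NDUFV1 (0.53), SDHA (0.54), COX6A2 (0.63) and ATP5F1D (0.47). The median was 0.05 without control calf 2, with 36 of 60 above 0, and none at that level. It was 0.36 without treated calf 1, with 7 at that level, and the count was 2 without treated calf 2 and 1 without treated calf 3. Among 26 regulators of oxidative metabolism the median was 0.27, with CPT1B, the mitochondrial fatty acid import enzyme, higher (0.77) and the deacetylase SIRT1 lower (-0.65). That median was 0.0011 without control calf 1, with 13 above and 13 below 0, 0.082 without treated calf 2 and 0.16 without treated calf 4.

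Of 15 myogenic regulators, MYOG (0.72), MYOD1 (0.95) and SIX4 (0.55), transcription factors of muscle differentiation, were at an unadjusted p under 0.05, and the list median was -0.07. The count of 3 was 1 without control calf 4 or treated calf 4 and 0 without treated calf 2, and the median was above 0 without any 1 calf other than treated calf 3. HOXA10 (1.74) and HOXA7 (0.72), positional factors, were so among 25 tested genes of limb and trunk position. HOXA10 was at 3.12, 10.2, 4.1 and 2.79 CPM in control round and 9.88, 9.28, 4.17 and 7.63 CPM in treated round, and at 1.27, 8.44, 3.95 and 0.965 CPM in control and 2.13, 1.76, 1.35 and 0.514 CPM in treated sirloin. Control calf 2 was high in both muscles. CCNB2, a cyclin of cell division, was the 1 proliferation gene of 24 tested at that level, with 0 counts in every control round library and 9, 11, 16 and 11 counts in treated round, so no fold is given. Medians between -0.37 and 0.12 and at most 2 members at that level were found in the lists of glycolysis and glycogen, calcineurin with NFAT and p38, adipocyte, tendon and cartilage, smooth muscle, endothelial, red blood cell, heat shock, circadian clock, atrophy and FOXO, glucocorticoid response, interferon response, IGF and insulin axis and embryonic isoforms. The adipocyte median of -0.37 became 0.36 without treated calf 4.

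**Figure D4:**
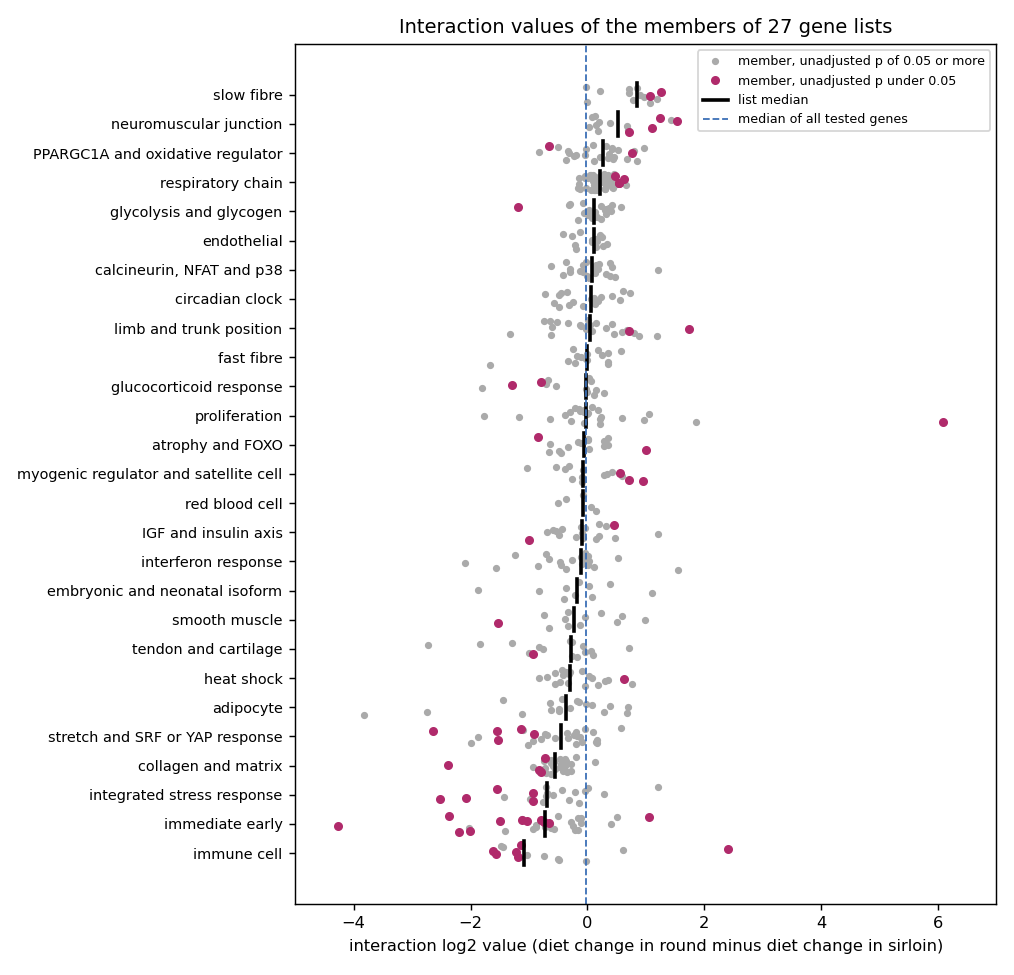
Interaction value (log2) of each tested member of 27 gene lists, 1 point per gene, with the list median as a black bar and the median of all tested genes as a dashed line. Points of unadjusted p under 0.05 are dark, and they lie left of 0 for 10 of 31 immediate early genes and right of 0 for 4 of 14 neuromuscular junction genes.

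The study listed 43 genes as different between diets in round muscle and 15 in sirloin, from these same libraries, so the size of their change in that muscle was fixed by how they were chosen. Of 40 round genes tested here, 39 had the larger diet difference in round and 38 had the same sign in both muscles, with medians of -1.93 in round and -0.64 in sirloin. At an unadjusted interaction p under 0.05 were 20 of the 40, against 4.94% of all tested genes, and all 20 had the larger difference in round. Choosing genes for a large difference in 1 muscle of these libraries can itself raise such a count. It is therefore not separate evidence of a difference between the muscles. Of 15 sirloin genes, 11 had the larger difference in sirloin, 15 had the same sign in both muscles, and 3 (NAB2, SGMS2 and RGS1) were at that level, SGMS2 with the larger difference in round. The count of 20 was 11 without control calf 3 and 7 without treated calves 3 and 4 and control calf 2.

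Among genes that the study discussed, several had an interaction interval that held 0. PPARGC1A, a coactivator of mitochondrial genes, had an interaction of 0.11 (95% interval -1.62 to 1.84), with diet differences of -2.14 in round and -2.26 in sirloin. It was at 126, 34.8, 547 and 411 CPM in control round and 24.2, 56.7, 44.9 and 41.9 CPM in treated round. In sirloin it was at 733, 43.0, 135 and 521 CPM in control and 36.6, 29.8, 63.4 and 61.2 CPM in treated calves. Diets overlapped in both muscles, and control calf 2 was the lowest control calf in each. The sign of its interaction turned without control calf 1 (-0.60) and without treated calf 2 (-0.25).

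ENAH, an actin regulator, had an interaction of -1.01 (-2.32 to 0.30), FOSL1, a Fos family factor, of -1.41 (-4.18 to 1.35), NFATC2, a calcium-responsive factor, of 0.31 (-0.96 to 1.59) and MAP2K6, a p38 kinase activator, of 0.41 (-0.19 to 1.01). LOC781412 had 0.80 (-0.83 to 2.42), LOC101904275 -0.86 (-2.07 to 0.36) and the cytochrome P450 gene CYP4B1 2.03 (-2.86 to 6.91). The intervals of FOSL1 and CYP4B1 allow differences of several fold in either direction. The following 3 of these values had an unadjusted edgeR p under 0.05 once 1 calf was left out. Without treated calf 4, whose sirloin library was high in adipocyte markers, MAP2K6 was at 0.67 (SE 0.21) and CYP4B1 at 2.84 (SE 1.01). Without control calf 1, ENAH was at -1.61 (SE 0.39). CYP4B1 averaged 0.0065 CPM in control round and 0.050 CPM in control sirloin. Its values thus rest on control libraries with few or no counts and are not a bound on a fold.

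**Figure D5:**
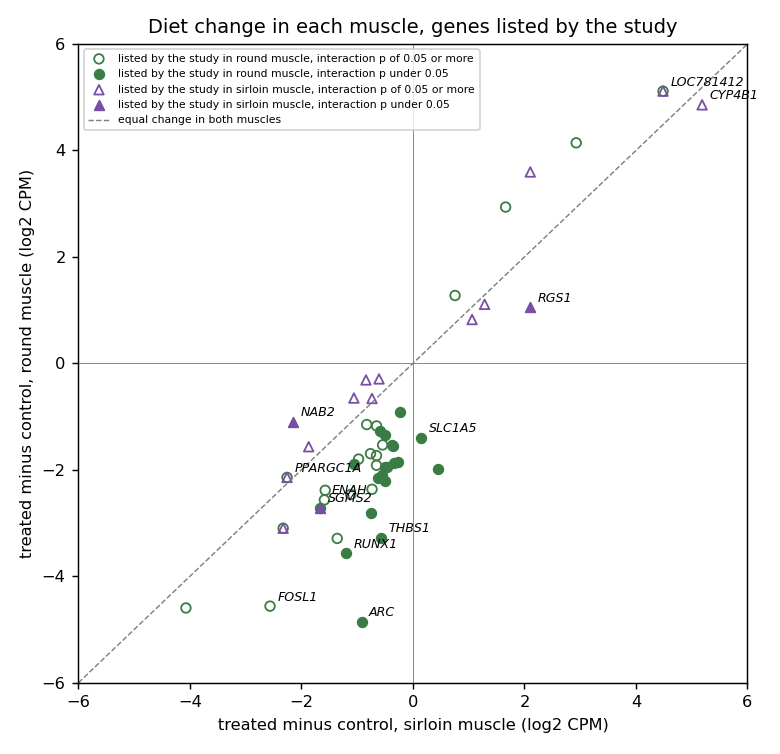
Treated minus control log2 CPM in sirloin (x) and round (y) for the 40 and 15 tested genes the study listed in round (circles) and sirloin (triangles), filled where the interaction p is under 0.05. ARC, RUNX1 and THBS1 lie far below the dashed line of equal change, PPARGC1A lies near it, and NAB2 lies above it.

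AMBP, which encodes the liver protein precursor of bikunin and alpha-1-microglobulin, was the gene past the threshold, with an interaction of 8.83 (SE 0.96, adjusted p = 0.0280 by edgeR). Its counts were 8, 9, 0 and 0 in control round and 14, 12, 265 and 7 in treated round. Sirloin of the control calves held 29, 90, 5 and 2 counts, and sirloin of the treated calves 0, 0, 4 and 0. The control calves had more in sirloin in all 4 cases and the treated calves more in round in all 4, with the difference on the log2 CPM scale -1.88 ± 0.79 in control and 3.38 ± 1.32 in treated calves (SD, n = 4). The fitted value rests on libraries at or near 0 counts and is not a bound on a fold.

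The hepatocyte list moved with AMBP. All 18 of its genes had counts in round of treated calf 3 and in sirloin of control calf 2, and 16 had in sirloin of control calf 1, while 2 to 14 had in the other libraries. The summed level was 0.504 to 7.35 CPM in control round, 1.36 to 156 in treated round, 0.735 to 57.8 in control sirloin and 1.38 to 3.70 in treated sirloin. ALB, the serum albumin gene, was at 6.44 CPM in treated round 3 and 2.53 CPM in control sirloin 2. Of its 12 tested genes, 12 were above 0 and 6 had an unadjusted p under 0.05. The list was chosen after AMBP's values were seen, and the same few libraries held most of its summed CPM. Its genes are therefore not separate evidence, and these counts were not repeated with a calf left out. AMBP had an interaction of 8.90 (SE 2.20) without treated calves 3 and 4 and control calf 2, with no gene called then. Leaving out any 1 calf also ended the call, with the interaction between 8.38 and 9.64 and the unadjusted edgeR p at most 0.000337. Hepatocyte RNA's part in the AMBP result was not tested.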

How the data were processed

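RNA-seq of round and sirloin muscle was deposited by the authors as raw counts per gene, and as TPM, in 1 table per muscle. The submitters' notes name STAR, featureCounts and build ARS-UCD1.2 with poly(A) selection, whereas the study's methods name a ribosomal and globin RNA depletion kit, HISAT2, Bowtie2 and StringTie, and the deposited values do not decide between them. Deposited comparison tables (fold changes and p-values) were not used. Count tables were joined by gene ID over 16 libraries. Symbols came from RefSeq's ARS-UCD2.0 table (30762 of 34109 genes, 90.2%) and gave names alone.

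edgeR 4.0.16 (R 4.3.3) was run with TMM factors (0.863 to 1.15), filterByExpr on 4 groups, and calf, muscle and interaction terms (6 residual degrees of freedom), with Benjamini-Hochberg adjustment over 15638 genes. Log2 CPM used a prior count of 2. DESeq2 1.42.0, limma 3.58.1, other factors and filters, and leaving out calves were alternatives. Data were simulated for this comparison from edgeR's own fit (15374 genes, 200 changed by 2 log2 units). In them edgeR recovered 61.5% of the changed genes with 6 false calls and DESeq2 75.5% with 40. With no gene changed (15396 genes), edgeR made 0 false calls and DESeq2 5. Calf pairing was taken from equal numbers in the library labels and checked. The deviations of a calf's muscles from their group means correlated at 0.340 to 0.701. The highest correlation with the other muscle of another calf was 0.374. Of 8 round libraries, 8 correlated best with their own sirloin library.

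The lists and members were chosen with earlier results of these data known, and the hepatocyte list after AMBP's values were seen. Named genes were every called gene, the 10 smallest p in each direction among genes with a symbol and a mean of at least 1 CPM, study-listed genes with an unadjusted p under 0.05 or discussed in its text, and the 2 smallest p of each list; further list members and library values were chosen after their values were seen. Of 640 list entries, 631 matched. Limits on depth are those of counting: 3 counts correspond to 0.0387 CPM in the deepest library.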

Additional observations from a re-analysis of the deposited data

Results flagged for a closer look

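Each gene's 4 differences per diet, and each marker sum's 4 libraries per group, were screened for a sample far from the other 3 by Dixon's test, which flags about 1 in 20 groups by chance. Of 128 groups, 12 were flagged. Of these, 5 were calf differences (of 96). C15H11orf96 was -0.22 in treated calf 4 against 0.07 to 0.11 in the others. CCNYL1 was -0.84 in treated calf 2 against 0.10 to 0.16. MT3 was -0.65 in control calf 1 against -1.89 to -1.73. PPARGC1A was 0.93 in treated calf 2 against -0.59 to -0.50. TMEM250 was 0.13 in treated calf 1 against 0.46 to 0.50.

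The other 7 were marker sums. Adipocyte markers were at 5444.57 CPM in sirloin of treated calf 4 against 797 to 1124 CPM. Collagen and matrix markers were at 11551 CPM in round of control calf 2, at 3720 CPM in sirloin of control calf 2 and at 4445 CPM in sirloin of treated calf 4. Hepatocyte markers were at 7.35 CPM in round of control calf 1 and at 156 CPM in round of treated calf 3. Immune cell markers were at 68.7 CPM in round of treated calf 2 against 15.1 to 21.7 CPM. AMBP differed between the muscles in its diet contrast by the interaction test (8.83).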

How the results depend on the processing

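The count of genes called was 1 with RLE or upper-quartile factors, a filter of at least 1 count, limma-voom, and at adjusted thresholds of 0.1 and 0.2. It was 7 with DESeq2 (AMBP higher, and ARC, PCOLCE2, RUNX1, MAP3K8, KCTD12 and gene 112442591 lower), 0 with a mean of at least 1 CPM, which leaves AMBP out, and 0 with limma on the calf differences (added after seeing the data). Leaving out any 1 calf gave 0 called (lowest and highest 0), with 513 (without control calf 2) to 1083 (without treated calf 1) genes at an unadjusted p under 0.05. Without treated calves 3 and 4 and control calf 2, added after seeing the data, 0 were called and 595 were at that level. Without the replicate block, and so without the calf pairing, 0 were called and 200 were at that level against 773. The pseudo-F was between 0.924 and 1.23, and non-overlapping genes numbered 477 to 594. The share of higher values among genes at that level was 34.5% without the block and 42.3% to 58.6% without 1 calf, against 50.3%.

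Of 48 named genes, the sign turned for PPARGC1A (-0.60 without control calf 1, -0.25 without treated calf 2, up to 0.84 without control calf 3), NFATC2 (-0.066 without control calf 3, -0.093 without control calf 4, up to 0.77 without control calf 2) and CYP4B1 (-0.33 with limma on calf differences). AMBP lay between 5.26 and 9.64 on the log2 scale. The cause of these changes was not tested. The median standard error of an interaction value was 0.33.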
